A study of Bos taurus with 6 samples.

Results

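The collagen genes were taken as every 3 kb window on chromosomes 1 to 29 of the bovine genome (UMD 3.1) whose gene label was COL, a type number, A and a chain number. This rule found 1436 windows of 902984, in 39 genes of the 24038 labelled on those chromosomes. The fibrillar genes of types COL1, COL2, COL3, COL5 and COL11 had 209 windows in 9 genes, and the other collagens had 1227 windows in 30 genes. MIRA-Seq libraries had been made from untreated dermal fibroblasts at passage 5, grown from skin of 3 Holstein heifers, each sampled at 5 months and again at 16 months, with 1 library per animal and age. The study had chosen these heifers because their cultures gave mid-level responses to lipopolysaccharide, and the cultures sequenced here had no such exposure. The ages were compared to ask whether DNA methylation of the fibroblasts changed as the animal grew.

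Collagens are the main structural proteins of the dermis, and fibroblasts are the cells that make most of them. Each collagen is a triple helix of chains, and the fibrillar types assemble into banded fibres, while others form networks in basement membranes, link fibres to their surroundings or span cell membranes. In MIRA, sonicated DNA is pulled down by proteins with affinity for methylated CpG sites, so that reads in a window rise both with methylation and with the number of CpG sites. CpG density was not measured here, so a level is a pull-down signal and not a methylated fraction, and the share of cells methylated cannot be told apart from the degree in each cell.

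The libraries held 19.9 to 43.6 M counted reads, of which the collagen windows took 37809 to 78676 reads, or 0.116% to 0.199%. The median collagen window had 6 reads per library, and 3.06% to 24.3% of the collagen windows had no read in a given library. Levels were expressed as counts per M counted reads (CPM) per 3 kb window, averaged over the windows of a gene. The mean over collagen windows was 1.39, 1.31 and 0.809 CPM at 5 months and 1.26, 1.25 and 0.885 CPM at 16 months for animals 1, 2 and 3. Both libraries of animal 3 were therefore the lowest at their age. Of the 20 collagen genes with a level of at least 1 CPM, 17 (85%) were lowest in animal 3 at both ages, beside 76.9% of all labelled genes at that level, and among the 19 weaker collagen genes this held for 2. The part of library enrichment in this difference between animals was not tested.

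Levels of the 39 genes spanned a wide range. The highest was COL7A1 on chromosome 22, the chain of the anchoring fibrils that fasten epidermis to dermis, at 7.93 ± 2.59 CPM (SD, n = 6). It was followed by COL5A1 (7.44 ± 2.89 CPM), COL6A1 of the beaded microfibrils (7.04 ± 2.51 CPM), COL18A1, the source of endostatin (6.71 ± 2.22 CPM), and COL4A2 of the basement membrane network (6.52 ± 1.88 CPM). The lowest levels were those of COL3A1 (0.0489 ± 0.0244 CPM), COL1A2 (0.0796 ± 0.0308 CPM), COL11A1 (0.0983 ± 0.0397 CPM) and COL24A1 (0.132 ± 0.0454 CPM). The ranges of all 38 neighbouring pairs in this order overlapped over the 6 libraries, and in 8 of these pairs, such as COL4A2 over COL4A1, the higher gene was above its neighbour within each library. COL7A1 stood at the 97.0th percentile of the labelled genes and COL3A1 at the 4.34th percentile. A level of at least 1 CPM was reached by 20 of 39 collagen genes (51.3%) and by 32.9% of all labelled genes.

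**Figure D1:**
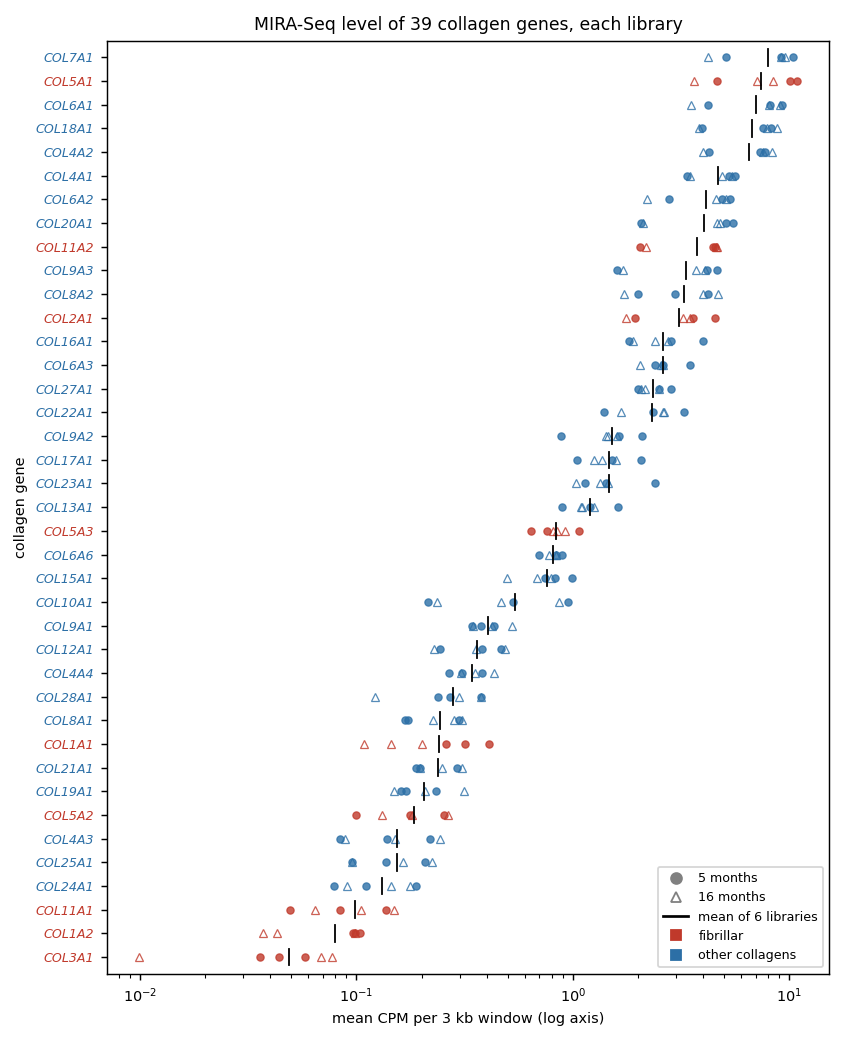
Level of each collagen gene in mean CPM per 3 kb window (log axis), with a symbol for each of the 6 libraries (filled circles 5 months, open triangles 16 months) and a bar for their mean, fibrillar genes in red. The 5 fibrillar genes COL1A1, COL1A2, COL3A1, COL5A2 and COL11A1 sit below 0.25 CPM, while COL5A1, COL11A2 and COL2A1 sit above 1 CPM.

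The fibrillar genes covered both ends of this order. COL1A1 and COL1A2 encode the chains of type I collagen, the chief protein of skin, and COL3A1 that of type III collagen, its companion in the dermis. COL1A1 (chr19:37087275-37105274, 6 windows, all with coding sequence) had 0.410, 0.317 and 0.259 CPM at 5 months for animals 1, 2 and 3, and 0.145, 0.108 and 0.202 CPM at 16 months, so that the ages did not overlap. COL1A2 (chr4:11624205-11663204, 13 windows) had 0.104, 0.0982 and 0.0968 CPM at 5 months and 0.0371, 0.0429 and 0.0983 CPM at 16 months. COL3A1 (chr2:7315634-7357633, 14 windows) had 0.0359, 0.0578 and 0.0440 CPM at 5 months, and 0.0689, 0.00996 and 0.0769 CPM at 16 months. These 3 genes held 256, 186 and 136 reads in all 6 libraries together, so their levels rest on few reads. COL5A2, a chain of type V collagen, which takes part in starting fibrils, and COL11A1, its cartilage relative, were also weak, at 0.184 ± 0.0651 and 0.0983 ± 0.0397 CPM.

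COL5A1, COL11A2 and COL2A1 had strong signal. COL5A1 had 10.1, 10.8 and 4.65 CPM at 5 months and 7.10, 8.36 and 3.61 CPM at 16 months in animals 1, 2 and 3. Its label covered only 4 windows (chr11:106983985-106995984), marked with coding segments 2, 5 and 6 or with none. The labels of COL2A1 and COL11A2 ran to segments 54 and 66. The values of COL5A1 are thus those of the windows labelled, which may be only a part of the gene. COL11A2 (chr23:7288593-7321592) had 4.52, 4.46 and 2.05 CPM at 5 months and 4.64, 4.60 and 2.17 CPM at 16 months. COL2A1 (chr5:32447506-32483505), the collagen of cartilage, had 4.52, 3.60 and 1.95 CPM at 5 months and 3.24, 3.49 and 1.76 CPM at 16 months. In each of these 3 genes the libraries of animal 3 were the lowest at both ages, and the ranges of the ages overlapped. Within animals, COL5A1 and COL2A1 were higher in value at 5 months in 3 of 3 animals and COL11A2 at 16 months in 3 of 3. COL5A3 lay between the weak and strong genes at 0.839 ± 0.144 CPM.

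Fibrillar genes had lower levels than the other collagens in 6 of 6 libraries. The median fibrillar gene had 0.260 ± 0.0987 CPM and the median of the other collagens 1.43 ± 0.374 CPM (SD, n = 6), beside 0.411 ± 0.0897 CPM over all labelled genes. On the log2(CPM + 0.5) scale the difference was -1.51, -1.34 and -1.13 in animals 1, 2 and 3, with a mean of -1.33 ± 0.190 (SD, n = 3). The exact two-sided sign-flip test over 3 animals gave p = 0.25, the smallest p that 3 animals allow, so the difference could not pass a threshold of 0.05. This test asks only whether the same genes keep the difference from animal to animal. The spread between genes, from 0.0489 to 7.44 CPM among the fibrillar genes, was not tested. Its size depended on the summary, being -0.52 for the mean over genes and -0.29 when windows were pooled over genes. A level below 0.25 CPM was found for 5 of 9 fibrillar genes and 6 of 30 other collagens (COL4A3, COL8A1, COL19A1, COL21A1, COL24A1 and COL25A1). COL24A1 and COL27A1, which are fibril-forming by sequence but were grouped with the others, lay at 0.132 and 2.34 CPM.

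Within the other collagens, members of the same type differed. Of the type IV chains, which form the sheet of basement membranes, COL4A1 and COL4A2 stood at 4.67 ± 0.990 and 6.52 ± 1.88 CPM, whereas COL4A3 and COL4A4, chains of the kidney glomerulus, stood at 0.154 ± 0.0656 and 0.341 ± 0.0601 CPM. The ranges of the former pair lay entirely above those of the latter pair in all 6 libraries. Each pair lies head to head, with a gap of 42 kb between the labels of COL4A1 and COL4A2 on chromosome 12 and of 21 kb between COL4A4 and COL4A3 on chromosome 2. The unlabelled windows in these gaps had 4.72 ± 1.01 and 0.343 ± 0.177 CPM. Among type VI chains, COL6A1, COL6A2 and COL6A3 had 7.04, 4.14 and 2.62 CPM and COL6A6 had 0.811 CPM. COL9A3 and COL9A2, chains of a collagen on the surface of cartilage fibrils, had 3.32 ± 1.32 and 1.52 ± 0.391 CPM against 0.407 ± 0.0691 CPM for COL9A1. COL17A1, the transmembrane collagen of hemidesmosomes, had 1.47 ± 0.349 CPM.

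The signal of a gene went with that of its surroundings. Across the 39 genes, the level and the mean of the 10 windows on each side of the label had a Pearson r of 0.90 on the log2(CPM + 0.5) scale and a Spearman rho of 0.89, over points that share libraries, read depth and regional base composition. The rho with the number of windows of a gene was -0.49 and with its percentage of coding windows 0.44. The level was above that of the flanks in all 6 libraries for 23 of 39 genes, as in COL6A1, whose flanks had 1.43 ± 0.404 CPM. It was below the flanks in all 6 libraries for 8 genes, among them COL1A1 (flanks 0.748 ± 0.230 CPM), COL3A1 (0.204 ± 0.0460 CPM) and COL11A1 (0.167 ± 0.0417 CPM). These correlations and counts were not computed for labelled genes in general, so they cannot be called particular to collagens. COL3A1 and COL5A2 lie tail to tail 15 kb apart on chromosome 2, and the windows between them had 0.142 ± 0.0649 CPM.

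The start of a gene, taken as the first labelled window on its strand, had less signal than the other windows, its body, in most collagen genes. COL18A1 (12.3 ± 5.20 CPM), COL5A1 (8.52 ± 3.50 CPM), COL9A3 (4.95 ± 1.88 CPM), COL4A2 (4.54 ± 0.936 CPM) and COL7A1 (4.19 ± 1.55 CPM) had the highest starts. The first labelled windows of COL5A1 and COL9A3 hold coding segment 2, and so may lie past the gene start. The lowest were those of COL10A1, a collagen of hypertrophic cartilage, with 0 reads in every library, COL3A1 with 1 read in all, COL11A1 (0.0385 ± 0.0365 CPM), COL5A2 (0.0386 ± 0.0373 CPM) and COL12A1, a collagen on fibril surfaces (0.0460 ± 0.0386 CPM). A count of 0 allows up to 3 reads, which is 0.0689 to 0.151 CPM in these libraries, so that the lowest starts cannot be ordered. The start was below 1 CPM in 25 of 39 genes (64.1%), beside 78.7% of all labelled genes.

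Body levels followed the gene levels by definition, since both average the same windows apart from the first. COL7A1 (8.31 ± 2.71 CPM), COL6A1 (8.15 ± 2.92 CPM), COL5A1 (7.07 ± 2.85 CPM), COL4A2 (6.57 ± 1.91 CPM) and COL18A1 (6.38 ± 2.07 CPM) were the highest. The lowest bodies were those of COL3A1 (0.0524 CPM), COL1A2 (0.0820 CPM), COL11A1 (0.0991 CPM), COL24A1 (0.131 CPM) and COL4A3 (0.154 CPM). The starts of COL24A1 and COL4A3 were as low, at 0.155 and 0.164 CPM. The windows of COL4A3 reached at most 0.443 ± 0.247 CPM (window 34), whereas window 24 of COL24A1 stood out with 2.28 ± 0.772 CPM.

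The log2 ratio of start to body, with 0.5 CPM added to each, had a median over the 39 genes of -0.47, -0.49 and -0.34 in animals 1, 2 and 3. The mean was -0.43 ± 0.0811 (SD, n = 3), below 0 in 6 of 6 libraries, with an exact sign-flip p of 0.25 over 3 animals. All 19867 labelled genes with at least 2 windows had -0.26 ± 0.0385 (SD, n = 6), with a range of -0.31 to -0.21 over the libraries, while the collagens ranged from -0.57 to -0.30. When windows were pooled over genes instead of compared within them, the sign turned to 0.28. The start was below the body in all 6 libraries in 23 genes and above it in 6, namely COL9A3, COL18A1, COL19A1, COL21A1, COL22A1 and COL28A1. The shares of all labelled genes with such starts were not computed.

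COL6A1 had the widest contrast. Its start had 0.552, 0.498 and 0.241 CPM at 5 months and 0.482, 0.0465 and 0.336 CPM at 16 months in animals 1, 2 and 3, against a body mean of 8.15 CPM, a log2 ratio of -3.28 ± 0.635 (SD, n = 6). Low starts under strong bodies were also seen in COL8A2, a short-chain collagen of endothelial basement membranes (-2.37 ± 0.942, from a label of only 2 windows), COL2A1 (-2.15 ± 0.563) and COL27A1 (-2.09 ± 0.155). On the other side, COL28A1 (1.20 ± 0.264), COL18A1 (0.84 ± 0.259) and COL21A1 (0.79 ± 0.247) had more signal at the start. Labels are not exact transcript starts, and the short labels of COL8A2 and COL10A1 (2 windows each), COL5A1 (4 windows) and COL23A1 and COL28A1 (8 windows each) may not cover the whole gene. The first window held coding segment 1 in 29 genes, no coding sequence in 5 and coding segment 2 in 5 (COL5A1, COL6A3, COL9A1, COL9A3 and COL28A1), and without these last 5 the median ratio was -0.53.

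**Figure D2:**
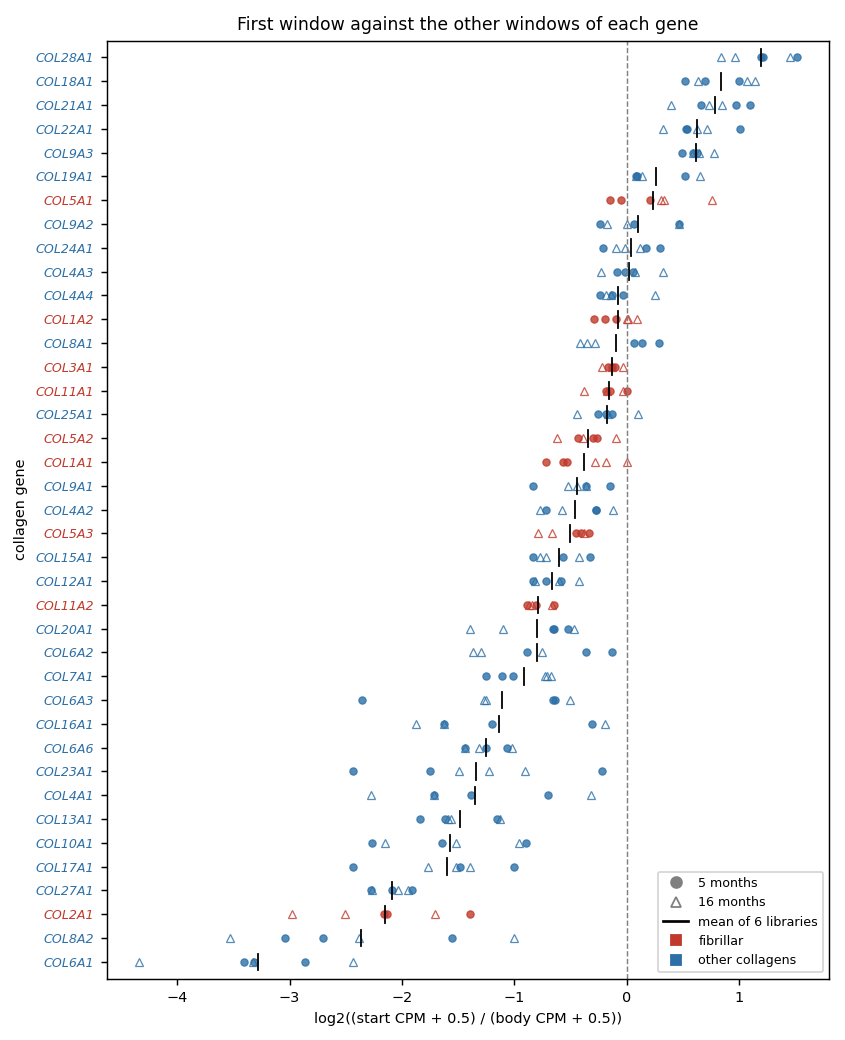
Log2 ratio of the first window to the mean of the other windows of each collagen gene (0.5 CPM added to each), with a symbol for each library and a bar for the mean. The ratio is below 0 in all 6 libraries in 23 genes, with COL6A1 the lowest at -3.28, and above 0 in all 6 libraries in 6 genes.

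Signal along single genes showed where reads accumulated. In COL2A1, windows 1 to 4 had 0.362, 0.112, 0.533 and 0.230 CPM, window 5 had 1.70 CPM, and signal reached 10.6 ± 4.34 CPM in window 10 and was 0.282 ± 0.0751 CPM in window 12, the last. COL1A1 had 0.0882 ± 0.0704 CPM in window 1 and 0.627 ± 0.294 CPM in window 6, the last, which held 43.8% of the reads of the gene. COL1A2 was near 0 throughout except in window 11, with 0.498 ± 0.307 CPM and 45.2% of its reads. COL3A1 had at most 0.194 ± 0.152 CPM, in window 12, and 5 reads in windows 1 to 4 over all libraries. In COL6A1 the low window 1 stood beside 11.8 ± 4.46 CPM in window 2.

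The windows with the most signal lay in genes of other types. Window 2 of COL7A1 (chr22:51860667-51863666) had 18.4 ± 6.06 CPM, with a range of 9.38 to 24.8 CPM over the libraries. Window 13 of COL27A1 (chr8:105129587-105132586) had 15.6 ± 3.44 CPM, where the windows on either side had 0.589 and 1.40 CPM. The next were window 26 of COL4A2 (chr12:89129422-89132421) with 14.5 ± 4.84 CPM, window 7 of COL6A1 (chr1:147421101-147424100) with 13.3 ± 4.99 CPM and window 1 of COL18A1 (chr1:146989101-146992100) with 12.3 ± 5.20 CPM. All 5 hold coding sequence.

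**Figure D3:**
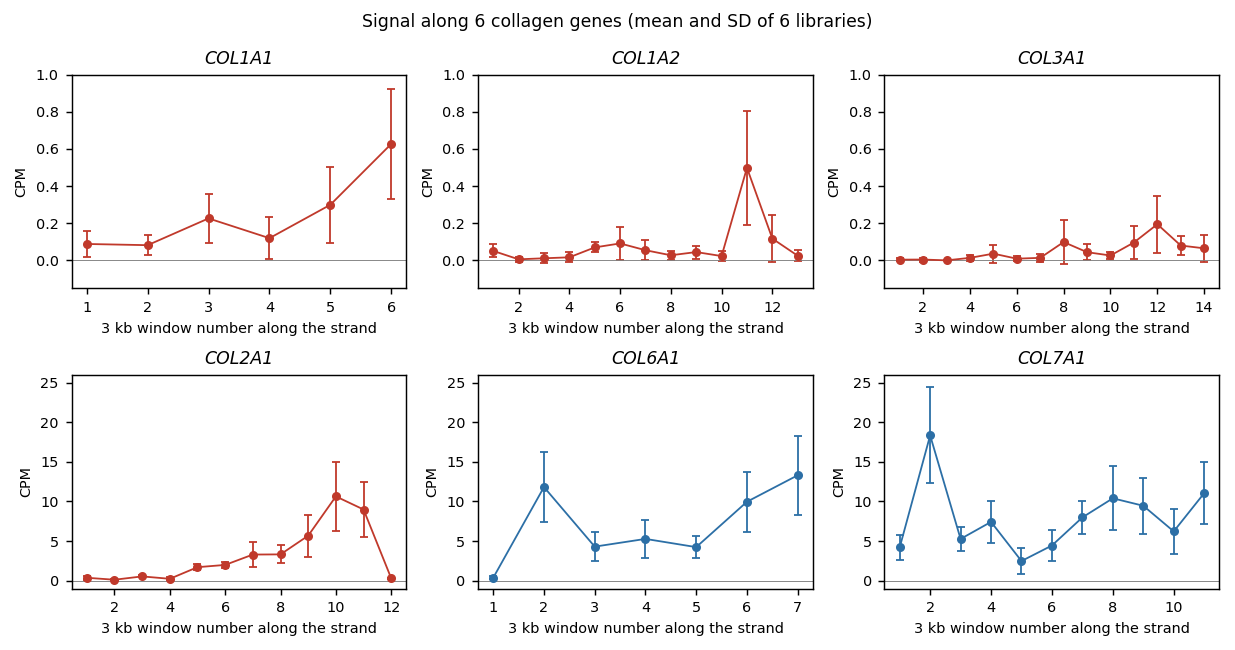
CPM of each 3 kb window along 6 collagen genes, numbered along the strand (points, mean of 6 libraries, bars, SD), on a scale to 1 CPM for COL1A1, COL1A2 and COL3A1 and to 26 CPM for COL2A1, COL6A1 and COL7A1. COL2A1 stays low over its opening windows and reaches 10.6 CPM in window 10, and COL7A1 reaches 18.4 CPM in window 2.

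With each label of at least 5 windows split by position into 5 equal parts, the median over 8 fibrillar genes was 0.124 ± 0.0382 CPM in the opening part and 0.377 ± 0.144 CPM in the closing part. In 28 other collagens these values were 0.951 ± 0.165 and 1.17 ± 0.158 CPM, with the highest median, 1.90 ± 0.472 CPM, in the middle part. The closing part was above the opening part in all 6 libraries in 16 of 36 collagen genes (44.4%) and in 45.1% of all labelled genes of that size, so this share was close to that of genes in general.

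Windows with coding sequence had more signal than the remaining windows of the same gene. In the 27 genes that have both kinds, the median log2 ratio was 0.37, 0.31 and 0.20 in animals 1, 2 and 3, with a mean of 0.29 ± 0.0844 (SD, n = 3), above 0 in 6 of 6 libraries and with an exact sign-flip p of 0.25 over 3 animals. All 12528 labelled genes with both kinds had 0.27 ± 0.0229, so the collagens lay near the value of genes in general. The ratio was above 0 in all 6 libraries in 18 genes, led by COL6A2 (6.46 ± 2.11 against 0.656 ± 0.231 CPM, log2 ratio 2.55 ± 0.443), COL8A1 (1.34), COL6A3 (1.21), COL18A1 (1.14) and COL27A1 (1.08). It was below 0 in all 6 libraries in 5 genes, of which COL5A1 (-0.36 ± 0.187), COL5A2 (-0.13 ± 0.0513) and COL11A1 are fibrillar and COL4A3 and COL24A1 are not. Among fibrillar genes with both kinds of window, 3 of 5 thus had less signal in coding windows. The other 12 genes, such as COL1A1 and COL7A1, had coding sequence in every window. The shares of all labelled genes with a coding ratio above or below 0 in all 6 libraries were not computed. The size of the median ratio depended on the amount added to the CPM, and was 0.53 with 0.1 CPM.

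No collagen window was called different between the ages. Of the 1436 windows, 351 (24.4%) in 35 genes passed the filter of 1 CPM in at least 3 libraries, beside 18.1% of all labelled windows, and 1 of these passed through the libraries of a single age. Calls needed an adjusted p below 0.1 and at least a 2-fold change in edgeR's quasi-likelihood test, blocked by animal and with Benjamini-Hochberg adjustment. By this rule 0 of 351 collagen windows were called, beside 0.185% of the 104658 windows tested, and edgeR's likelihood-ratio test and DESeq2 also called 0. At an unadjusted p below 0.05 there were 29 collagen windows (8.26%), beside 7.1% of all windows tested. This count depended on the fit, with 14 windows (3.99%, beside 5.2%) under scaling by library size only, 9 (2.57%, beside 2.06%) without animal 1 and 53 (15.2%, beside 13.8%) without animal 3. Of these 29, 24 were higher at 5 months and 5 at 16 months. Over all windows tested, 4342 of the 7429 at such a p were higher at 5 months (4.15% of the 104658 tested).

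Differences were mostly small. Log2 fold changes, positive where the 5-month cultures were higher, ran from -0.94 to 1.24 with a median of 0.03, against 0.02 over all windows tested, and 203 of 351 (57.8%) were above 0, against 52.6%. Scaled values of the ages did not overlap in 20 collagen windows, beside 5.28% of all windows tested.

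The collagen window with the lowest p was the start of COL6A2, a chain of the beaded microfibrils (chr1:147541101-147544100, without coding sequence). Scaled by TMM factors, it had 3.77, 2.72 and 4.07 CPM at 5 months for animals 1, 2 and 3, and 1.77, 1.93 and 1.78 CPM at 16 months. It was higher at 5 months in 3 of 3 animals with no overlap, at a log2 fold change of 0.93 ± 0.25 (SE) and an adjusted p of 0.0946 in edgeR's quasi-likelihood test, and missed the 2-fold threshold. Over the alternatives its adjusted p ran from 0.0908 to 1.0.

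The next windows by p did not reach the adjusted threshold with all animals and TMM scaling. In window 17 of COL4A2 (chr12:89102422-89105421) the 5-month cultures had 6.39, 3.74 and 9.44 CPM and the 16-month cultures 3.06, 2.43 and 6.45 CPM, so that the ages overlapped although each animal was higher at 5 months (log2 fold change 0.75 ± 0.21, adjusted p 0.120 in edgeR, 0.0367 to 1.0 over the alternatives, lowest without animal 3). In window 3 of COL5A1 (chr11:106986985-106989984) they had 11.9, 13.9 and 11.2 CPM against 8.28, 8.32 and 5.74 CPM, with no overlap (0.73 ± 0.23, adjusted p 0.198 in edgeR, 0.00866 to 1.0 over the alternatives, lowest with library size only and 0.0438 without animal 3). Without TMM factors the ages of the COL5A1 window overlapped. Animal 3 had 258 reads of 37.3 M at 5 months, and animal 1 had 347 of 43.6 M at 16 months. Neither the COL4A2 nor the COL5A1 window reached a 2-fold change under any alternative. Window 32 of COL9A1 (chr9:9514951-9517950), the last of its label, went the other way, with 1.70, 2.22 and 2.60 CPM at 5 months and 3.58, 3.57 and 3.45 CPM at 16 months (-0.72 ± 0.24, adjusted p 0.292 in edgeR, 0.106 to 1.0 over the alternatives).

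The remaining windows among the 10 with the lowest p were all higher in value at 5 months in 3 of 3 animals, at log2 fold changes of 1.24 for window 5 of COL16A1, 0.75 for window 21 of COL6A3, 0.66 for window 19 of COL4A1, 0.64 for window 7 of COL2A1, 0.98 for window 36 of COL15A1 and 0.65 for window 7 of COL4A2. Their adjusted p-values in edgeR ran from 0.213 to 0.464, and the lowest under any alternative was 0.0634, for window 19 of COL4A1. In window 36 of COL15A1 and window 5 of COL16A1 the highest depth at a single position reached 0.778 and 0.556 of the read count of a library, against 0.257 in the start of COL6A2. Both windows had as few as 9 reads in a library, and this share can be high where reads are few. Its part in the differences was not tested.

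Summed over the windows of each gene, 38 of the 39 collagens could be tested, since COL3A1 was under the filter. By edgeR's quasi-likelihood test 0 of 38 were called, beside 0.00584% of 17128 genes, and 20 were higher in value at 5 months and 18 at 16 months. By this test only 0.566% of all genes tested had an unadjusted p below 0.05, so 0 calls do not show that the ages were equal. Among the collagens 1 gene (2.63%) reached that p, and edgeR's likelihood-ratio test and DESeq2 also gave 0 calls and 1 gene at that p.

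This gene was COL1A1. Its 6 windows held 49, 61 and 58 reads at 5 months for animals 1, 2 and 3, and 38, 14 and 36 reads at 16 months. Scaled by TMM factors, these were 6.81, 4.91 and 5.69 CPM against 2.37, 2.00 and 3.74 CPM. The 5-month cultures were higher in 3 of 3 animals with no overlap between the ages, which was the case in 3.02% of all genes tested. The log2 fold change was 1.13 ± 0.53 (SE), with an unadjusted p of 0.0346 and an adjusted p of 0.9999 in edgeR. Its last window gave 21, 25 and 29 of these reads at 5 months and 16, 6 and 15 at 16 months. Without animal 2 the gene was called in edgeR, at a log2 fold change of 1.06 and an adjusted p of 0.0787 (0.0787 to 1.0 over the alternatives), in a fit that called 334 genes in place of 1. In that fit 18 of 38 collagen genes (47.4%) had an unadjusted p below 0.05, beside 26% of all genes tested.

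The partner chain COL1A2 had 3.75, 3.30 and 4.61 CPM at 5 months and 1.31, 1.72 and 3.95 CPM at 16 months, higher at 5 months in 3 of 3 animals but with overlap between the ages (log2 fold change 0.87 ± 0.58, unadjusted p 0.136 in edgeR). Without TMM factors it was higher at 5 months in 2 of 3 animals, since the CPM of animal 3 given above were lower at that age. COL5A1 had 112, 112 and 68.0 CPM against 77.0, 103 and 44.7 CPM (0.42 ± 0.25), again higher in each animal with overlap. COL8A1, a short-chain collagen of vessel walls, had the most negative value, -0.39 ± 0.27, and was higher at 16 months in 2 of 3 animals. The rest of the 10 genes with the lowest p had log2 fold changes of 0.40 in COL15A1, 0.33 in COL23A1, 0.24 in COL16A1, 0.23 in COL2A1, 0.23 in COL6A3 and -0.28 in COL11A1, each with an adjusted p of 0.9999 in edgeR. Without animal 2, in the fit with 334 calls, the adjusted p in edgeR was 0.0171 for COL11A1, 0.0222 for COL8A1, 0.0239 for COL5A1, 0.0630 for COL6A3 and 0.0719 for COL2A1, each short of a 2-fold change, and the highest value over the alternatives of each was 1.0. The values of COL23A1 and COL11A1 changed sign without animal 1.

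**Figure D4:**
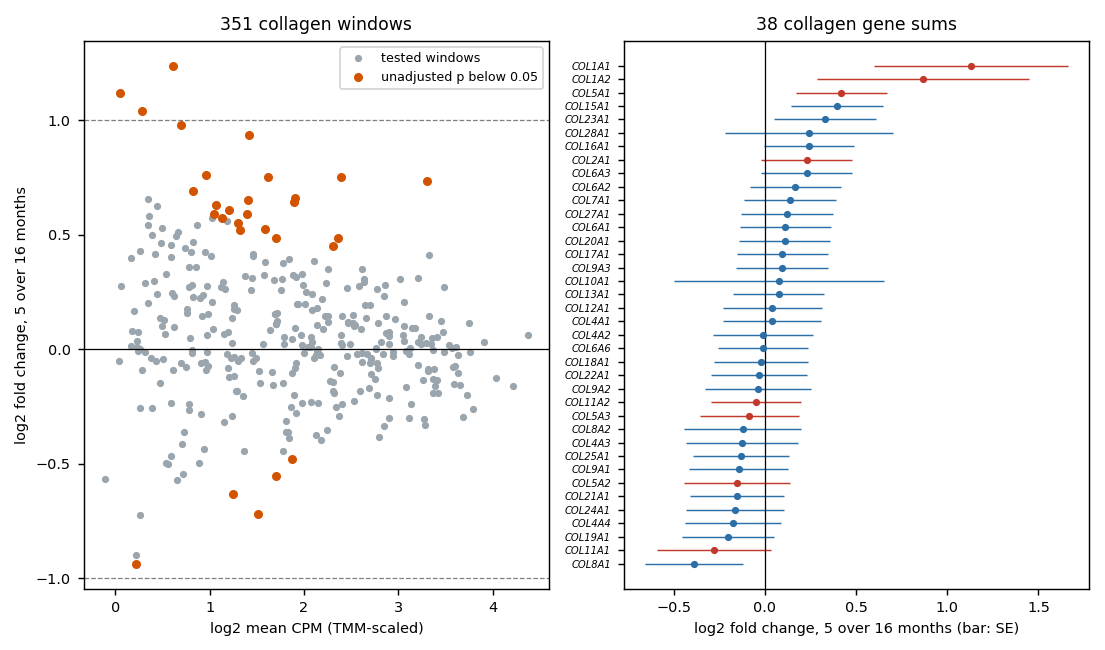
Left, log2 fold change of 5 over 16 months for the 351 collagen windows tested against their log2 mean CPM, with the 29 windows at an unadjusted p below 0.05 in orange and dashed lines at a 2-fold change. Right, log2 fold change with its SE for 38 collagen gene sums, fibrillar genes in red, where COL1A1 lies highest at 1.13.

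**Figure D5:**
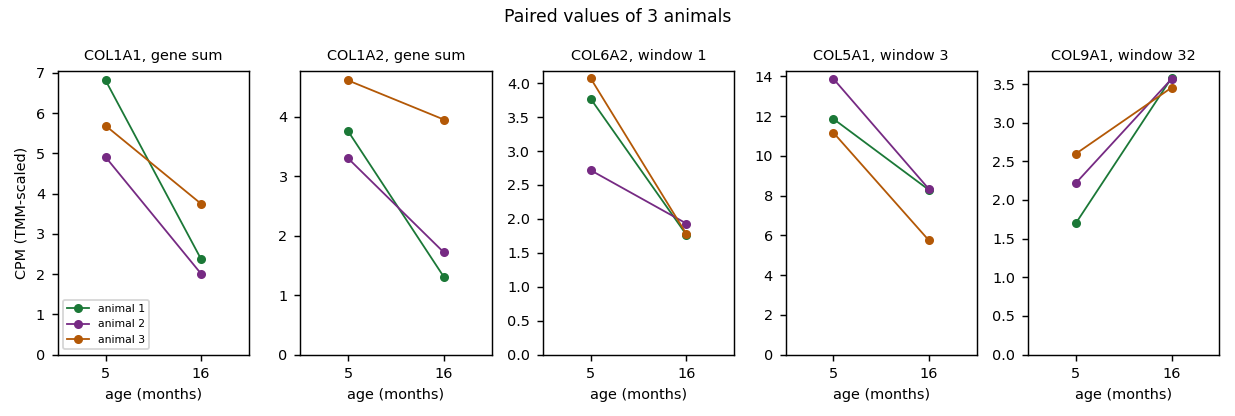
CPM scaled by TMM factors at 5 and 16 months in each of the 3 animals, for the gene sums of COL1A1 and COL1A2 and for windows of COL6A2, COL5A1 and COL9A1. COL1A1 and the windows of COL6A2 and COL5A1 are higher at 5 months and that of COL9A1 at 16 months, in all 3 animals and without overlap, and the ages of COL1A2 overlap. Without TMM factors the ages of the COL5A1 window overlap too.

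The median level of neither class passed the test between the ages, for which 3 animals allow no exact p below 0.25. For the fibrillar genes the 5-month minus 16-month difference of the median log2(CPM + 0.5) was 0.42, 0.37 and -0.0097 in animals 1, 2 and 3, with a mean of 0.26 ± 0.235 (SD, n = 3, exact sign-flip p = 0.5). The median fibrillar gene was COL1A1 in the 3 libraries of 5 months and COL5A2 in the 3 of 16 months, so that this value rests on those genes. For the other collagens it was 0.40, 0.23 and -0.37, with a mean of 0.09 ± 0.405 (exact p = 0.75), and over all labelled genes the mean was 0.02 ± 0.293. Animals 1 and 3 thus went opposite ways in the other collagens, and the sign of their mean changed without animal 1.

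The genes that act on collagens were described from fixed lists. Among genes of collagen synthesis and folding, 0 of the 14 gene sums were called in edgeR, with 10 higher in value at 5 months and a median log2 fold change of 0.15. For processing and cross-linking enzymes these values were 0 of 13, 11 and 0.18, for fibril partners 0 of 6, 6 and 0.09, and for collagen receptors 0 of 8, 5 and 0.04, beside a median of 0.02 and 53.1% higher at 5 months over all genes tested. Of the 233 windows of these lists that were tested, 2 were called, beside 0.185% of all windows tested, and both were higher at 5 months. The window in SERPINH1, the chaperone of procollagen (chr15:55516557-55519556), had 0.828, 2.12 and 4.59 CPM scaled by TMM factors at 5 months and 0.621, 1.14 and 0.559 CPM at 16 months, with a log2 fold change of 1.43 ± 0.39 and an adjusted p of 0.0975 in edgeR. It was higher at 5 months in 3 of 3 animals, but the ages overlapped, and animal 3 showed the widest difference. The window in LOXL1, a cross-linking enzyme of elastic and collagen fibres (chr21:35068963-35071962), had 3.77, 1.99 and 1.99 CPM against 1.34, 0.396 and 1.58 CPM, with no overlap (1.30 ± 0.34, adjusted p 0.0743 in edgeR). Without TMM factors the ages of the LOXL1 window overlapped. Animal 3 had 46 reads of 37.3 M at 5 months, and animal 1 had 56 of 43.6 M at 16 months. The SERPINH1 and LOXL1 windows were singled out after their values were seen.

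DNA libraries hold no expression, so the labelled cell type could be looked at only through the starts of marker genes. The starts of all 10 dermal fibroblast markers were below 1 CPM, with a median of 0.141 CPM, as were 4 of 6 epithelial and 3 of 5 leukocyte marker starts, with medians of 0.501 and 0.481 CPM, beside 78.7% of all labelled genes. Each animal and age gave a single library, so a difference between ages holds culture and library differences as well. The spread in edgeR's tests came mostly from an estimate shared over all features tested. That estimate added 178 degrees of freedom over windows and 247 over gene sums to the 2 from the libraries of a feature. The sign-flip tests used 1 value from each of the 3 animals.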

How the data were processed

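MIRA-Seq libraries of fibroblast cultures from 3 heifers at 5 and 16 months were analysed, grouped by the ages in the labels. They were paired by replicate number, which was taken as the animal. The authors filtered the reads, aligned them to UMD 3.1 with NextGENe 2.3.4 and deposited read counts of 3 kb windows without normalization. The highest depth of each window, a coverage signal deposited by the authors, was used only as a share of its reads. How duplicate reads and reads with several matches were handled was not given in the sources used here, and counting error limits values of few reads. Positions, gene labels and coding segments are those of the files. No genome of this build was used here, so no sequence is printed.

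Counts were tested in R 4.3.3 with edgeR 4.0.16 (quasi-likelihood test, animal as a block, TMM factors over the features tested, Benjamini-Hochberg adjustment over all of them, filter of 1 CPM in at least 3 libraries), after a check on simulated data, with limma 3.58.1 loaded by edgeR and DESeq2 1.42.0 as the alternative test. SE is the log2 fold change over the root of F. The block left 2 residual degrees of freedom, to which the shared estimate of the spread added 178 over windows. Levels were CPM over all counted reads without TMM factors, and log2 contrasts added 0.5 CPM. Exact two-sided sign-flip tests used the mean of both libraries of an animal. Python 3.11.15, numpy 2.4.6, pandas 2.3.3, scipy 1.17.1 and matplotlib 3.10.9 were used.

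Members, lists and rules were chosen with earlier results of these data known. Named were all fibrillar genes, called features, the 10 windows and 10 genes with the lowest p by age, the 5 windows with the most signal, and the 5 highest and 5 lowest starts and bodies. Other genes are named as examples of their group. The pairing takes libraries of the same replicate number as those of the same animal. Deviations of the libraries of animals 1, 2 and 3 from their age mean correlated at 0.256, 0.502 and 0.708 over windows, and at 0.273, -0.17 and 0.765 over gene sums. Alternatives were other tests, scalings, filters, thresholds, pseudocounts and summaries, no block and each animal left out. Where an animal was left out, the filter asked for at least 2 libraries.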

Additional observations from a re-analysis of the deposited data

Results flagged for a closer look

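In 78 groups of 6 libraries (the level and the start of each collagen gene), 3 had a library far from the others by Dixon's test, where chance gives about 1 in 20. The 3 groups found do not exceed that rate. COL23A1 had a level of 2.41 CPM in the 5-month culture of animal 1 and 1.03 to 1.45 CPM in the other libraries. The start of COL4A4 had 0.605 CPM in the 16-month culture of animal 3 and 0.232 to 0.252 CPM elsewhere. The start of COL3A1 had 0.0230 CPM in the 16-month culture of animal 1, which is 1 read beside none elsewhere. This is below the 3 reads that a count of 0 allows, so that it shows no difference between libraries.

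Both collagen genes labelled on chromosome X, outside the rule for the members, held more reads in each library than the 3 that a count of 0 allows for the whole gene. COL4A5 had 105 to 369 reads per library over 108 windows, at 0.0730 ± 0.0263 CPM per window, and COL4A6 had 129 to 404 reads over 63 windows, at 0.144 ± 0.0427 CPM. Both are weak, with a mean window under 3 reads in 4 and in 2 of the 6 libraries.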

How the results depend on the processing

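Counts of calls moved from 0 to 1 collagen window with no fold threshold (the start of COL6A2), to 2 windows without animal 3 (0 to 2 over the animals left out) and to 1 gene sum without animal 2 (COL1A1, 0 to 1). The 2 windows, named after their values were seen, were window 39 of COL8A1 and window 2 of COL22A1. Both were higher at 16 months in animals 1 and 2, in a fit that called 1278 windows in place of 194. Window 39 of COL8A1 had 6 and 3 reads at 5 months and 46 and 22 at 16 months in these animals. With an animal left out, the filter asked for 1 CPM in at least 2 libraries, and this window passed it only through its 16-month libraries. It was not tested with all animals, so its call cannot bear on age. In animal 3, window 2 of COL22A1 was higher at 5 months (4.1 against 3.2 CPM, scaled by TMM factors). Without the animal as a replicate block 0 collagen windows and 0 gene sums were called, with 7 windows at an unadjusted p below 0.05 in place of 29, and the difference of the median levels stayed at 0.26 for fibrillar and 0.09 for other collagens (exact p 0.2 and 0.7). Taken over 6 libraries, 2 from each animal and so not independent, the exact p was 0.0312 for the fibrillar difference (-1.33), the start ratio (-0.43) and the coding ratio (0.29). With windows pooled over genes the start ratio turned to 0.28, the fibrillar age difference to -0.0334 and that of the other collagens to -0.0502. Leaving out an animal gave -1.43 to -1.24, -0.48 to -0.40 and 0.26 to 0.34 for the contrasts, and 0.18 to 0.40 and -0.0704 to 0.315 for the age differences. Over the animals left out the gene sums of COL11A1 ran from -0.80 to 0.0543 and those of COL23A1 from -0.0066 to 0.55, turning without animal 1. The cause was not tested. With pseudocounts of 0.1 and 1 CPM the fibrillar difference was -2.09 and -0.93. Alternatives without the genes labelled from coding segment 2, and with labels of at least 5 windows, were chosen after the data were seen. Depth limits the genes of few reads, such as COL1A1, COL1A2 and COL3A1.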
